A study of Sus scrofa with 34 samples.

Results

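ENSSSCG00000038068, ENSSSCG00000040986 and ENSSSCG00000022295 are 3 pig genes that carry an Ensembl identifier and no symbol in the sources used here. They are 3 of the 25880 genes counted in the series and were chosen because their counts in earlier results of these data looked switched on in some pigs and off in others. They were chosen by the counts per library, the agreement of ileum and liver of the same pig and the spread over the liver diets, and these values are given as a description without a test. The description held in both tissues for ENSSSCG00000038068 only. ENSSSCG00000040986 was high or low in the ileum, with a few counts also in the low pigs, and was weak in the liver of all pigs. ENSSSCG00000022295 went against the description, because no ileum library had more than 1 count and no liver library reached 30.

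The series holds 34 RNA-Seq libraries from weaned crossbred piglets labelled d28, which is the feeding day of sampling in the study's methods. The series description gives it as the age of the pigs. In the methods, however, weaned piglets were acclimatized before 28 days of feeding, so that they were older than 28 days at sampling. Ileum was sequenced from 5 control piglets and 5 piglets fed a phytogenic feed additive (PFA, a mixture of essential oils and related plant compounds). Liver was sequenced from 6 piglets per diet on control, PFA, oxidized oil (OO, heated rapeseed oil as a model of oxidative stress) and OO + PFA. The basal feed had the same ingredients on all diets, but the OO diets held much more oil and more energy, with the other ingredients diluted, so that oxidation, oil content and energy cannot be told apart. Each diet was fed in 1 pen, so that pen and diet cannot be told apart. In the names of the piglets the prefixes C, P, OO and OP stand for control, PFA, OO and OO + PFA, followed by the animal number of the title. The 10 ileum piglets, C-71, C-80, C-92, C-100, C-110, P-75, P-95, P-107, P-134 and P-138, also gave a liver library, and these 10 pigs allow each gene to be read in 2 organs of 1 animal. All piglets came from Landrace × Large White sows and Pietrain boars, and the trial used males and females in equal number. The litter and sire of single piglets were not given in the sources used here.

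A gene that is transcribed in some animals and silent in others of the same herd is a familiar pattern in outbred livestock. Known reasons in general are inherited differences, such as a deleted or duplicated gene, a changed promoter or a splice variant, as well as genes on the Y chromosome. An inherited difference is carried by every organ of an animal, whereas a response to feed, a different cell mixture or a difference between libraries need not be. These general statements are background and were not tested for the 3 genes.

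Between 18772230 and 24338165 read pairs per ileum library and between 18738055 and 42446834 per liver library were counted on genes. CPM are read pairs of a gene per 1000000 read pairs counted on genes in the library. The ileum epithelium markers (6 of 6 found) summed to between 15966 and 28251 CPM in the ileum and between 238.9 and 597.7 CPM in the liver. The hepatocyte markers (5 of 6 found) summed to between 22173 and 208531 CPM in the liver and between 0.632 and 2.25 CPM in the ileum, as the tissue labels say. OP-77 is the liver library that was left out of the study's own tests for suspected RNA degradation. It had 23.2% of read pairs without a unique alignment, against 2.55% to 11.6% in the other livers.

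ENSSSCG00000038068 showed the clearest pattern. In the control ileum it had 0 counts in C-71, 4 in C-80, 27 in C-92, 16 in C-100 and 1 in C-110. In the PFA ileum it had 2 counts in P-75, 916 in P-95, 900 in P-107, 287 in P-134 and 1064 in P-138. The other PFA piglets, 4 in number, were thus high, whereas P-75 lay among the control piglets, so that the diets overlapped. The widest break in the ileum was between 27 and 287 counts, with 6 libraries below and 4 above it.

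The liver of the same gene also fell into a low and a high set, and high livers were found on every diet. In the control liver ENSSSCG00000038068 had 0 counts in C-71 and in C-80, 677 in C-85, 10 in C-92, 10 in C-100 and 1 in C-110. In the PFA liver it had 0 counts in P-67, 2 in P-75, 437 in P-95, 782 in P-107, 516 in P-134 and 735 in P-138. C-85, at 16.1 CPM, was therefore far above the other control livers and just below the high PFA livers, and P-67 and P-75 were as low as the control piglets. In the OO liver the counts were 2 in OO-74, 278 in OO-88, 24 in OO-97, 564 in OO-99, 0 in OO-102 and 0 in OO-130. In the OO + PFA liver they were 0 in OP-77, 448 in OP-79, 201 in OP-98, 663 in OP-105, 1 in OP-126 and 2 in OP-137. Both oil diets held piglets near 0 and piglets above 200 counts, and OP-77 was one of the livers at 0. The widest break in the liver was between 24 and 201 counts, with 14 libraries below and 10 above it. At least 100 counts were reached in 1 of 6 control, 4 of 6 PFA, 2 of 6 OO and 3 of 6 OO + PFA livers. The liver titles have 2 forms, PigLiv and PL, and at least 100 counts were reached in 6 of 14 PigLiv and 4 of 10 PL libraries, so that neither form held the high livers alone.

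**Figure D1:**
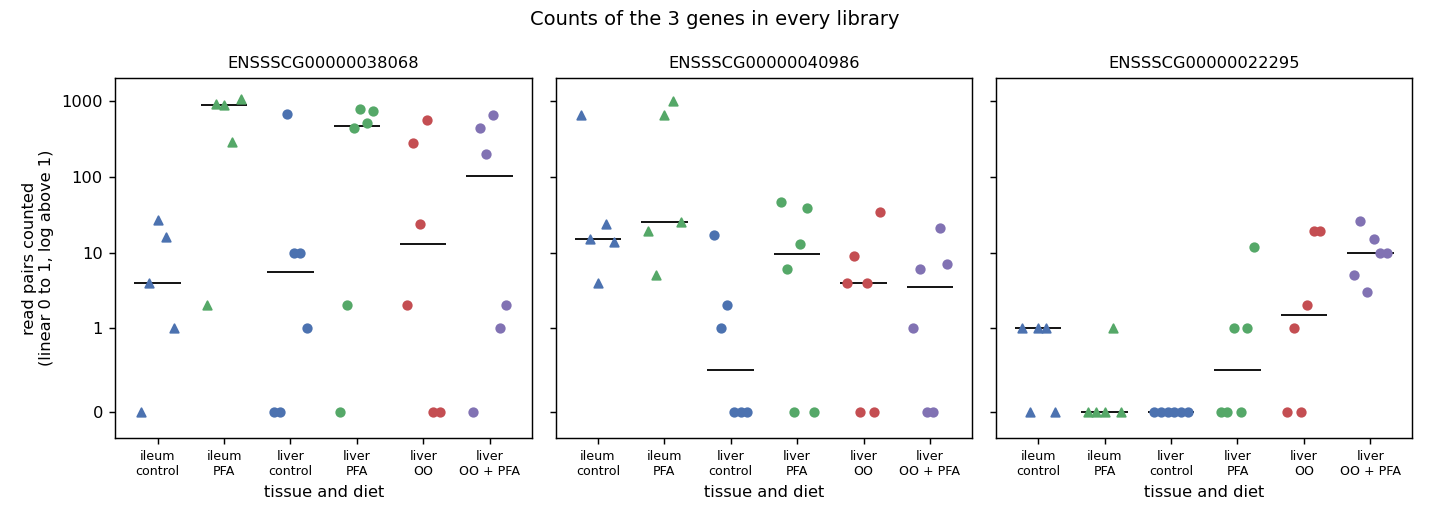
Read pairs counted for the 3 genes in all 34 libraries, on an axis that is linear from 0 to 1 and logarithmic above 1, with triangles for ileum, circles for liver and a line at the median of each group. ENSSSCG00000038068 splits into low and high libraries in both tissues, ENSSSCG00000040986 in the ileum, and ENSSSCG00000022295 does not exceed 26 counts.

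The 10 pigs with both tissues were in the same state for ENSSSCG00000038068 in ileum and liver. P-95, P-107, P-134 and P-138 had at least 287 counts in the ileum and at least 437 in the liver, and the other 6 pigs had at most 27 and at most 10. The agreement extended to the low range. C-92 and C-100 had 27 and 16 counts in the ileum and 10 each in the liver, whereas C-71, C-80, C-110 and P-75 had at most 4 in the ileum and at most 2 in the liver. C-92 and C-100 thus lay between the lowest and the high pigs in both organs, and the source of these few read pairs was not tested. Among the 4 high pigs the ileum was above the liver by a ratio of CPM of 2.32 in P-95, 1.72 in P-107 and 2.03 in P-138, and was below it in P-134, with a ratio of 0.593. P-134 stood apart from the other high pigs through its ileum, at 12.5 CPM against up to 52.3 CPM, whereas its liver, at 21.1 CPM, lay within the high range of 17.5 to 27.9 CPM.

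**Figure D2:**
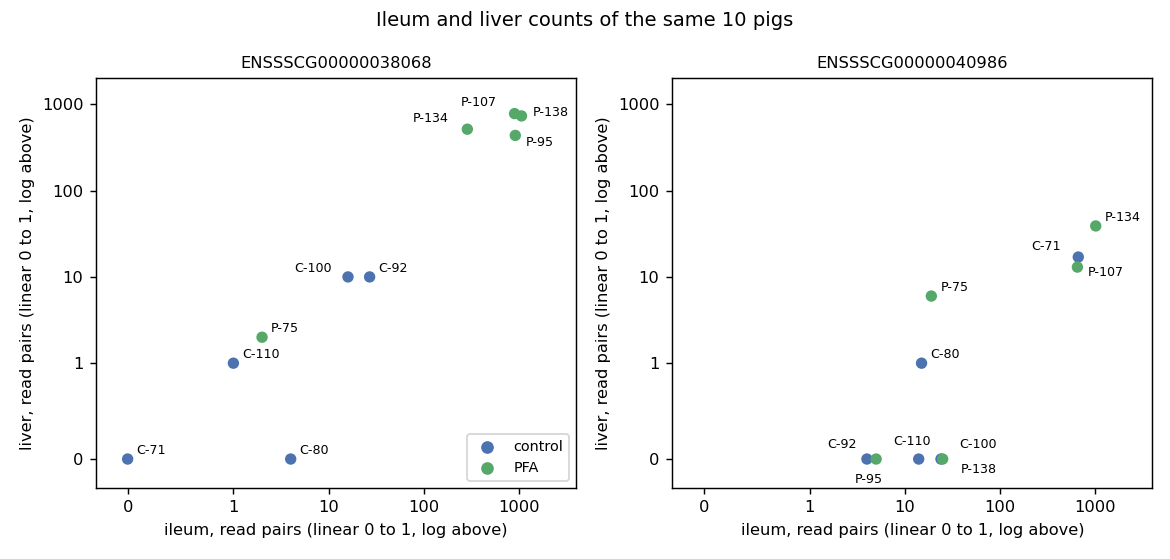
Ileum counts (horizontal) against liver counts (vertical) of the same 10 pigs for ENSSSCG00000038068 and ENSSSCG00000040986, each point 1 pig, with axes linear from 0 to 1 and logarithmic above. For the first gene 4 PFA pigs lie at the upper right, and for the second gene C-71, P-107 and P-134 lie to the right of all others but reach only 13 to 39 counts in the liver.

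The level of ENSSSCG00000038068 per diet followed from how many high pigs a group held. From high to low the means were 30.7 ± 23.1 CPM in the PFA ileum (SD, n = 5), 15.4 ± 12.4 in the PFA liver (n = 6), 8.08 ± 10.2 in the OO + PFA liver (n = 6), 5.48 ± 8.67 in the OO liver (n = 6), 2.81 ± 6.51 in the control liver (n = 6) and 0.475 ± 0.594 in the control ileum (n = 5). Each pair of neighbours in this order differed by less than the larger of their SDs. In the ileum the log2 fold change of PFA over control was 6.06 (SE 1.25). Of 14300 genes tested in the ileum, edgeR called 0 (0%), with 401 genes at an unadjusted p under 0.05, and therefore 0 of the 3 genes. DESeq2 called 1 gene (0.00699%), and this was ENSSSCG00000038068. The choice of the gene used this contrast, and nothing is read from these calls.

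Across the 4 liver diets, edgeR called 506 of 13831 genes (3.66%) and 0 of the 3 genes. DESeq2 called 1776 genes (12.8%), of which 1 was among the 3, ENSSSCG00000022295. The choice of the genes used the spread over these diets, and nothing is read from these calls. The 3 genes were chosen for counts that seemed to differ between pigs, so the ranks of their spread are a description and not a finding. The spread of ENSSSCG00000038068 within the diets was among the widest of all genes. The SD of its log2 CPM within groups was 2.72 in the ileum, rank 18 of 14300 genes, and 3.65 in the liver, rank 11 of 13831. The medians over all genes were 0.302 and 0.347.

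The ileum and liver counts of the 10 pigs were among the values that chose the genes, so their difference in level between the tissues is a description without a p. ENSSSCG00000038068 had a log2 fold change of ileum over liver of -0.11 (SE 0.80). The fold changes between the tissues come from fits with TMM scaling, whereas CPM and their ratios use plain library totals. The fitted values and the ratios are therefore not on the same scale and can differ in direction. With the pig as a block the value was -0.24 (SE 0.29). By read pairs the ileum was higher in 6 pigs, lower in 1 (P-134) and equal in C-71, C-110 and P-75, each with 0 to 2 counts. Of 14264 genes, 6288 (44.1%) were called between the tissues, and 6313 (44.3%) with the block. Of the 2 genes kept in these fits 1 was called, ENSSSCG00000040986, and nothing is read from this call. Tissue and the form of the library title cannot be told apart, since all ileum titles have a form of their own, and in bulk tissue fewer cells of a type and less RNA per cell cannot be told apart.

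The genes with the most similar course to ENSSSCG00000038068 were sought among 12535 genes with counts in both tissues, by Pearson r of log2 CPM over the 34 libraries after each gene was centred on its mean per tissue. Libraries of the same pig share an animal, so the 34 points are not independent and r is a description. ENSSSCG00000038557, also without a symbol, had r = 0.97, and the next gene had r = 0.58. It had 88 counts in the ileum of P-95, 136 in P-107, 39 in P-134 and 90 in P-138, and at most 4 in the other 6 ileum libraries. In the liver it had 21 to 81 counts in the same 10 livers in which ENSSSCG00000038068 was high and at most 2 counts in the other 14. Both genes thus split the 34 libraries in the same place. In the high libraries the counts of ENSSSCG00000038557 were 8.46% to 15.1% of those of ENSSSCG00000038068 in the ileum and 6.38% to 12.5% in the liver. This is a ratio of read pairs and not of transcripts, since the lengths of the 2 gene models were not used here. Whether both identifiers are pieces of 1 transcript was not tested, because their positions were not used here.

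Further down the list the values were much smaller. CMBL, which codes for a carboxymethylenebutenolidase, a hydrolase of the liver and intestine, had r = 0.58, DESI2 had 0.57, NDUFB6, a subunit of respiratory complex I, had 0.56, and ENSSSCG00000030088 had 0.55. The most opposite genes were PKD1L2 (r = -0.60), the interferon-induced gene IFI6 (r = -0.53) and ATPSCKMT (r = -0.51), a lysine methyltransferase of the mitochondrial ATP synthase. Only 10 of the 12535 genes (0.0798%) reached r of 0.5 in either direction. The drop from r = 0.97 to 0.58 after the first gene was the largest step at the top of this list.

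**Figure D3:**
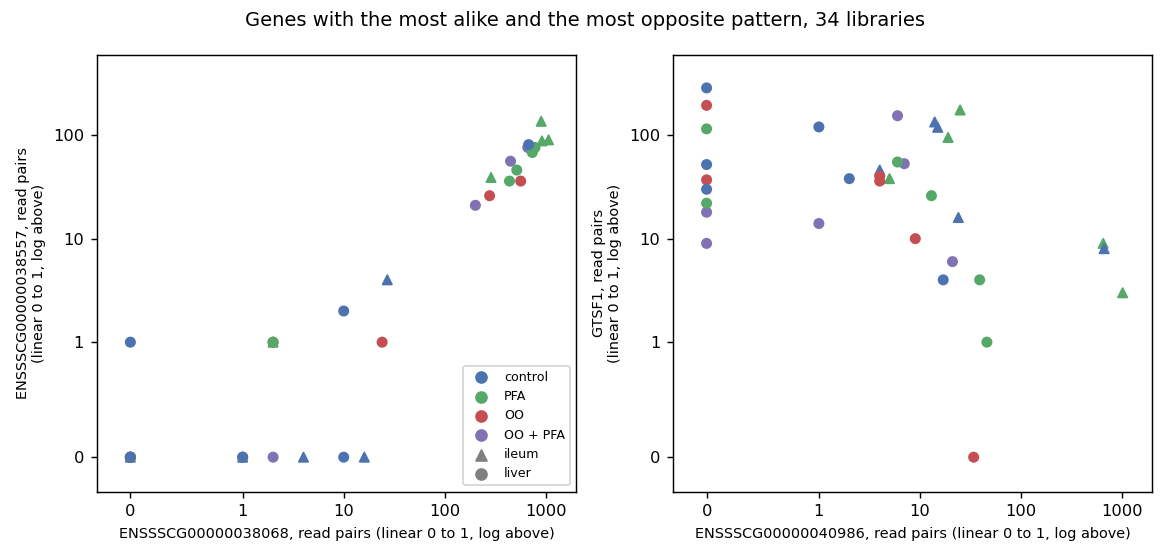
Left, counts of ENSSSCG00000038557 against ENSSSCG00000038068 in the 34 libraries, where all libraries with at least 201 counts of the second gene have at least 21 of the first. Right, GTSF1 against ENSSSCG00000040986, where the 3 ileum libraries with over 600 counts of ENSSSCG00000040986 have 3 to 9 counts of GTSF1 (axes linear from 0 to 1 and logarithmic above, triangles ileum, circles liver).

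ENSSSCG00000040986 was high in other pigs than ENSSSCG00000038068, and mainly in the ileum. In the control ileum it had 665 counts in C-71, 15 in C-80, 4 in C-92, 24 in C-100 and 14 in C-110. In the PFA ileum it had 19 counts in P-75, 5 in P-95, 651 in P-107, 1014 in P-134 and 25 in P-138. Both diets held high and low pigs, and the widest break was between 25 and 651 counts, with 7 libraries below and 3 above. None of the low ileum libraries was at 0, so the gene was low rather than off in these pigs. P-107 and P-134 were high for both genes, C-71 was high for ENSSSCG00000040986 alone, and P-95 and P-138 were high for ENSSSCG00000038068 alone.

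The liver counts of ENSSSCG00000040986 were low in all 24 pigs. In the control liver they were 17 in C-71, 1 in C-80, 2 in C-85 and 0 in C-92, C-100 and C-110. In the PFA liver they were 46 in P-67, 6 in P-75, 0 in P-95, 13 in P-107, 39 in P-134 and 0 in P-138. C-71, P-107 and P-134, the pigs with the high ileum, thus had the highest liver counts among the 10 pigs with both tissues. In the OO liver the counts were 4 in OO-74, 9 in OO-88, 0 in OO-97, 4 in OO-99, 0 in OO-102 and 34 in OO-130. In the OO + PFA liver they were 1 in OP-77, 6 in OP-79, 0 in OP-98 and in OP-105, 21 in OP-126 and 7 in OP-137. Every diet held at least 1 liver with 10 counts or more, 1 of 6 on control, 3 of 6 on PFA, 1 of 6 on OO and 1 of 6 on OO + PFA. By title form these were 4 of 14 PigLiv and 2 of 10 PL libraries. No wide break separated these livers from the others, and with such counts a low and an off state could not be told apart.

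In the 3 pigs with a high ileum, ENSSSCG00000040986 reached 28.0 to 44.2 CPM there and 0.464 to 1.59 CPM in the liver. The ileum was above the liver by a ratio of CPM of 38.1 in C-71, 74.7 in P-107 and 27.7 in P-134. The other 7 pigs had 0.205 to 1.23 CPM in the ileum and 0 to 6 counts in the liver. The same 3 of the 10 pigs were thus highest in both organs, while the level differed. The order within the 3 and within the other 7 was not the same, since P-107 was above C-71 in the ileum and below it in the liver, and P-138 and C-100, the highest of the 7 in the ileum, had 0 counts in the liver. The log2 fold change of ileum over liver was 4.22 (SE 1.12), and 4.01 (SE 0.42) with the pig as a block, again as a description. These fits use TMM scaling, unlike the ratios of CPM. The ileum was higher in 10 of 10 pigs.

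From high to low the mean level of ENSSSCG00000040986 was 16.2 ± 21.4 CPM in the PFA ileum (SD, n = 5), 6.15 ± 12.2 in the control ileum (n = 5), 0.558 ± 0.649 in the PFA liver (n = 6), 0.399 ± 0.659 in the OO liver (n = 6), 0.226 ± 0.315 in the OO + PFA liver (n = 6) and 0.136 ± 0.294 in the control liver (n = 6). Neighbours in this order differed by less than the larger of their SDs. The log2 fold change of PFA over control in the ileum was 1.38 (SE 1.46), and without C-71, the single high control pig, it was 4.54. Without P-134 it was 0.63 and without P-107 0.85, so that the value depended on each of the 3 high pigs. The SD of log2 CPM within groups was 2.88 in the ileum, rank 16 of 14300 genes, and 1.71 in the liver, rank 57 of 13831, again as a description.

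The gene closest to ENSSSCG00000040986 was ENSSSCG00000033114, again without a symbol (r = 0.83 over 34 libraries). It had 308 counts in the ileum of C-71, 160 in P-107 and 794 in P-134, and 21 to 62 in the other 7. Its liver counts were 0 to 55. The same 3 pigs were thus highest for both genes in the ileum, but the ratio between the genes was not constant, since P-107 had nearly as many counts of ENSSSCG00000040986 as C-71 but fewer of ENSSSCG00000033114. JCHAIN, the joining chain of polymeric immunoglobulins made by plasma cells, followed with r = 0.63 (0.91 within the 10 ileum libraries). It stood at 1214 to 1319 CPM in C-71, P-107 and P-134 and at 532.2 to 919.3 CPM in the other 7 ileum libraries, so that these ranges did not overlap. The summed lymphoid markers (6 of 6 found) were 493.6 to 696.9 CPM in the same 3 pigs and 490.3 to 1134 CPM in the others, which did overlap. The part of plasma cells in the values of ENSSSCG00000040986 was not tested. ENSSSCG00000039561 (r = 0.62), the immune receptor gene CD300C (0.60) and ENSSSCG00000035226 (0.58) completed the most similar genes.

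The most opposite gene to ENSSSCG00000040986 was GTSF1 (r = -0.71), a zinc finger protein of the piRNA pathway that silences transposons in the germline. GTSF1 had 8 counts in the ileum of C-71, 9 in P-107 and 3 in P-134, the lowest values of the tissue, and 16 in C-100. The other 6 ileum libraries had 38 to 175. In the liver GTSF1 had 1 count in P-67, 4 in C-71 and in P-134, 0 in OO-130, 6 in OP-126 and 26 in P-107, the 6 livers with at least 10 counts of ENSSSCG00000040986, and 9 to 286 in the others. GTSF1 was picked by its r in these same libraries, so that the opposite course is a description. In the liver the ranges overlapped. P-107 had more counts of GTSF1 than OP-98 (9), OP-105 (18) and P-95 (22), which had 0 counts of ENSSSCG00000040986. WDR17 (r = -0.70) and the zinc finger gene ZNF527 (r = -0.65) were the next. In all, 39 of 12535 genes (0.311%) reached r of 0.5 in either direction, 17 positive and 22 negative.

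ENSSSCG00000022295 did not share the on and off pattern of the other genes. In the ileum it had 0 or 1 count in each of the 10 libraries. In the control liver it had 0 counts in all 6 libraries, among 187646896 read pairs in all. In the PFA liver it had 0 counts in P-67, P-75 and P-107, 1 in P-95 and in P-134, and 12 in P-138. P-138 was therefore the single liver above 1 count among the unchallenged pigs, and its ileum had 0 counts. Since no ileum library had more than 1 count, agreement of the tissues could not be judged for this gene.

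In the OO liver ENSSSCG00000022295 had 0 counts in OO-74, 1 in OO-88, 0 in OO-97, 2 in OO-99, 19 in OO-102 and 19 in OO-130. In the OO + PFA liver it had 5 counts in OP-77, 26 in OP-79, 3 in OP-98, 15 in OP-105, 10 in OP-126 and 10 in OP-137. All OO + PFA livers were above all control livers, while the OO livers overlapped with both. At least 5 counts were found in 0 of 6 control, 1 of 6 PFA, 2 of 6 OO and 5 of 6 OO + PFA livers, and in 5 of 14 PigLiv and 3 of 10 PL libraries. The spread over the diets thus differed from that of ENSSSCG00000038068, whose high livers were found on all diets.

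The mean of ENSSSCG00000022295 was 0.434 ± 0.242 CPM in the OO + PFA liver (SD, n = 6), 0.315 ± 0.447 in the OO liver (n = 6), 0.0837 ± 0.167 in the PFA liver (n = 6), 0.0284 ± 0.0261 in the control ileum (n = 5), 0.00871 ± 0.0195 in the PFA ileum (n = 5) and 0 in the control liver (n = 6). The neighbours in this order differed by less than the larger of their SDs. Because all control livers were at 0, each fold was taken against a floor of 3 counts over the control group (0.0160 CPM). By the counts summed per diet, as observed, PFA was at 4.94-fold, OO at 15.8-fold and OO + PFA at 29.1-fold of this floor. Without OP-77 the OO + PFA value was 30.9-fold. The floor allows for counting error in the control group alone. The counting error of the 14, 41 and 69 read pairs and the spread between pigs are not covered, and a few pigs carried the values. Without P-138 the PFA livers held 2 read pairs, which is below the floor and gives no fold. Without OO-102 the OO value was 9.89-fold of the floor and without OO-130 it was 9.66-fold. The SD of log2 CPM within liver diets was 1.14, rank 258 of 13831 genes.

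The genes that followed ENSSSCG00000022295 were many. Over the same 34 libraries 3358 of 12536 genes (26.8%) reached r of 0.5 in either direction, against 10 and 39 genes for the other 2. Genes were centred per tissue and not per diet. Since every ileum library had 0 or 1 count of ENSSSCG00000022295, its r rested mainly on the 24 livers. MEX3D, an RNA-binding protein, had r = 0.94, the zinc finger gene ZNF768 0.92, NAXD, which repairs hydrated NAD(P)H, 0.90, SCAND1 0.90 and PPP1R26 0.90. The 7 livers with at least 10 counts of ENSSSCG00000022295 had 8.25 to 12.3 CPM of MEX3D, and the 11 livers at 0 had 2.25 to 4.23 CPM. The 6 livers with 1 to 9 counts lay between and across them, at 3.05 to 8.33 CPM. MEX3D was thus higher in every liver with at least 10 counts of ENSSSCG00000022295 than in every liver at 0. The mean of MEX3D in the liver was 3.23 CPM on control, 4.64 on PFA, 6.32 on OO and 9.18 on OO + PFA. This is the same order of diets as for ENSSSCG00000022295, and the part of diet in r was not tested. The most opposite genes were PRUNE1 (r = -0.84), AMER1 (-0.83) and CLIP1 (-0.82), a microtubule plus-end protein. PRUNE1 had 5.80 to 8.18 CPM in the 7 livers and 7.81 to 10.6 CPM in the 11 livers, with a small overlap.

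**Figure D4:**
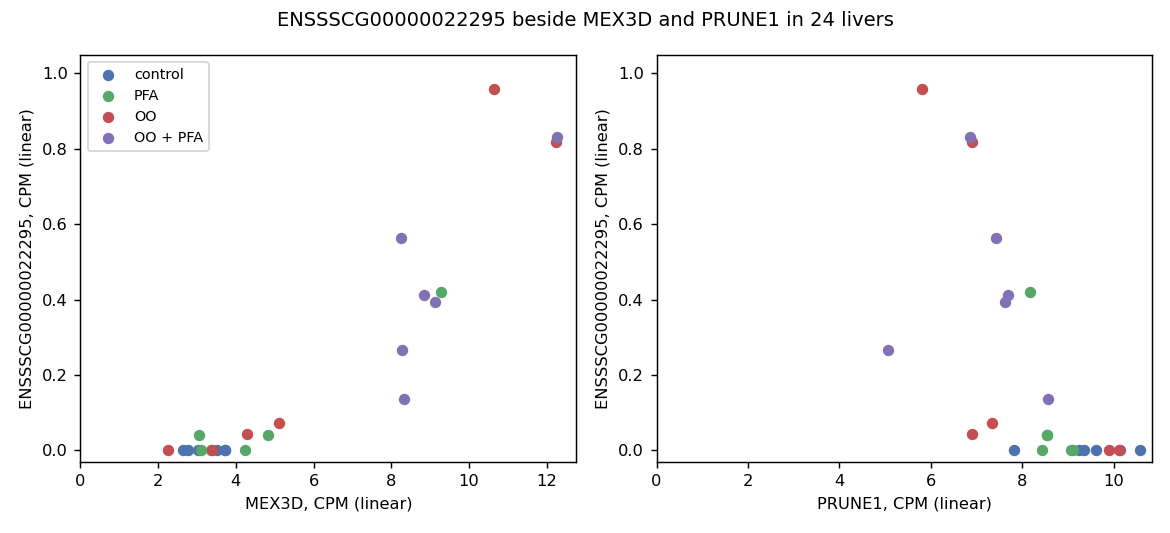
CPM of ENSSSCG00000022295 (vertical) against MEX3D (left) and PRUNE1 (right) in the 24 livers, each point 1 liver coloured by diet, on linear axes. All livers above 0.1 CPM of ENSSSCG00000022295 have more than 8 CPM of MEX3D, and the control livers lie at 0.

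The positive partners of ENSSSCG00000022295 had GC-rich exons. Exonic GC content on Sscrofa11.1 was 65.3% for MEX3D, 64.9% for ZNF768, 64.2% for NAXD, 66.9% for SCAND1 and 68.3% for PPP1R26, against a median of 51.1% (quartiles 43.9% and 58.7%) over 10236 of the 12536 genes. The opposite partners were at 49.4% (PRUNE1), 49.7% (AMER1) and 45.5% (CLIP1). The partners of ENSSSCG00000038068 were at 47.8% (CMBL), 48.8% (DESI2) and 46.9% (NDUFB6), and its opposite genes at 54.6% (PKD1L2) and 57.9% (IFI6). For ENSSSCG00000040986 the range was wide, with JCHAIN at 34.5% and CD300C at 60.1% among the similar genes, and GTSF1 at 41.3%, WDR17 at 43.9% and ZNF527 at 42.7% among the opposite ones. The GC content of ENSSSCG00000022295 itself was not used here, and the part of GC content in its values was not tested.

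**Figure D5:**
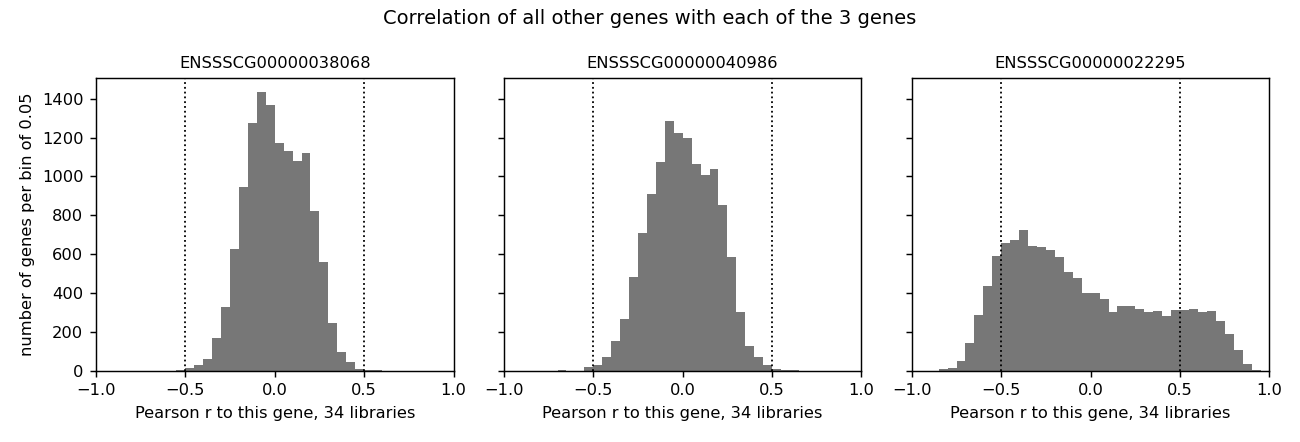
Number of genes by their Pearson r to each of the 3 genes over 34 libraries, in bins of 0.05, with dotted lines at -0.5 and 0.5. The first 2 genes have narrow distributions with 10 and 39 genes beyond the lines, and ENSSSCG00000022295 has a wide one with 3358.

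To show how common the pattern is, genes were counted that had at least 1 library with 3 counts or fewer (off) and at least 1 with 30 counts or more (on). Of the 25880 genes, 245 (0.947%) did so in the ileum, 684 (2.64%) in the liver and 66 (0.255%) in both tissues. With counts scaled by TMM these were 147, 527 and 36. The liver had 24 libraries, many of them deeper, against 10 in the ileum, so the shares of the tissues are not comparable. ENSSSCG00000038068 was one of the 66, ENSSSCG00000040986 met it in the liver but not in the ileum, where its lowest count was 4, and ENSSSCG00000022295 met it in neither. A stricter count, in which each of the 10 pigs had to be off or on and in the same state in both tissues, left 11 genes (0.0425%). None of the 3 genes was among them, ENSSSCG00000038068 because of C-80, C-92 and C-100, whose counts lay between off and on.

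Of these 11 genes, 9 were on in C-71, C-110, P-75, P-134 and P-138 and off in the other 5 pigs, with KDM5D and EIF1AY, known Y-linked genes, among them. ENSSSCG00000038068 did not follow this split between pigs with and without Y-linked transcripts. It was high in the ileum of 2 of 5 pigs with KDM5D and 2 of 5 pigs without, and in the liver of 5 of 14 with and 5 of 10 without. ENSSSCG00000040986 was high in the ileum of 2 of 5 pigs with KDM5D and 1 of 5 without, and had at least 10 liver counts in 4 of 14 and 2 of 10. High and low pigs of both genes were thus found on either side of the split, and the pig numbers in ileum and liver titles matched in KDM5D for all 10 pigs. Of the major histocompatibility genes, another family known to vary between animals, 4 of 14 listed symbols were found, SLA-DQB1, SLA-DMA, SLA-DMB and SLA-DOA. All 4 had counts in every library, and 0 of them were off in one library and on in another. Most listed symbols were not found and differences in sequence were not looked at, so that nothing is read from this about the family.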

How the data were processed

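Counts per Ensembl gene were used as deposited. The authors made them from stranded, poly(A)-enriched paired-end libraries by alignment with STAR 2.6.1d to Sscrofa11.1 and counting with HTSeq, without normalization. Which annotation was counted, and with which strand setting, is not given in the sources used here, so that reads of a gene and of an overlapping gene on the other strand cannot be told apart, and pairs with several alignments were not counted on genes. Totals that name no gene were left out of library sizes. The whole-series tables equalled the single files (879920 values, 0 different).

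The 3 genes, the lists and the tests were chosen with earlier results of these data known. Named genes were the 3 genes, the 5 most similar and 3 most opposite genes to each, and those in the same state in both tissues. Lists of 8 Y-linked, 14 histocompatibility and 4 sets of cell type marker genes were used as checks, and the red cell markers (3 of 4 found) summed to between 12.5 and 40.5 CPM in the ileum and 119.2 and 1807 CPM in the liver. Symbols were found for 14857 genes and for 0 of the 3. Exonic GC content came from RefSeq by symbol for 81.7% of the 12536 genes compared. Sequences and positions of the 3 genes were not used here.

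Genes were tested with edgeR 4.0.16 (R 4.3.3, limma 3.58.1) by the quasi-likelihood test, two-sided, after TMM scaling and filterByExpr, for ileum PFA against control (14300 genes), 4 liver diets (23 libraries without OP-77, 13831 genes) and ileum against liver with a diet term (20 libraries, 14264 genes). Genes were called at a p of at most 0.05 after Benjamini-Hochberg adjustment and, other than across the 4 diets, at a fold change of at least 2. ENSSSCG00000022295 was kept by the filter in the liver alone, the other 2 in all fits. For these 3 genes no p is printed in any comparison, since their counts in both tissues chose them. The SE of a log2 fold change is its absolute value divided by the square root of the F value of the fit. It is therefore not a separate estimate, and nothing is read from the size of a fold change against its SE. Log2 CPM used a prior count of 2. The study used DESeq2, which was an alternative here (version 1.42.0), besides RLE scaling, no filter, all 24 livers, a term for the title form, the pig as a replicate block, other limits for off and on, and leaving out each pig in turn. Ileum and liver libraries were paired by the pig number and diet in the titles. Deviations from the group means correlated between the tissues of a pig from -0.204 (P-138) to 0.483 (P-134). Among 80 pairs of libraries of 1 group the lowest chi-square per degree of freedom was 32.61, so that no library was a copy of another in its group. Libraries of different groups were not compared in this way. Python 3.11.15, numpy 2.4.6, pandas 2.3.3 and matplotlib 3.10.9 were used for tables and plots.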

Additional observations from a re-analysis of the deposited data

Results flagged for a closer look

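Of 15 groups of libraries looked at for the 3 genes, 6 held a highest library far from the rest by Dixon's ratio of gap to range. The genes were chosen for pigs that stand apart, so the number of such groups is a description and is not set against chance. For ENSSSCG00000038068 this was C-85 among the control livers, at 16.1 CPM (ratio 0.973). For ENSSSCG00000040986 these were C-71 in the control ileum, at 28.0 CPM (0.965), and C-71 in the control liver, at 0.736 CPM (0.935), so that the same pig stood out in both tissues. In the OO liver it was OO-130, at 1.71 CPM (0.777), and in the OO + PFA liver OP-126, at 0.825 CPM (0.651). For ENSSSCG00000022295 it was P-138 among the PFA livers, at 0.421 CPM (0.903), from 12 counts.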

How the results depend on the processing

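In the ileum DESeq2 called 1 gene in place of 0, and all other alternatives called 0. Across the liver diets DESeq2 called 1776 and all 24 libraries gave 1113 in place of 506. Leaving out single livers gave 297 to 1450, with 297 without C-85, 314 without C-100, 322 without C-110, 767 without P-138, 995 without OO-74, 1450 without OO-97, 325 without OP-98 and 303 without OP-126. The title form term gave 453. Genes in the same state in both tissues of all pigs numbered 5 with off at 0 counts and 11 to 12 without single pigs, in place of 11. Those off and on in both tissues numbered 17 to 223 by the limits or scaling, in place of 66. The cause of these changes was not tested.

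With the pig as a replicate block, 6313 genes were called between ileum and liver in place of 6288 (without single pigs 6250 to 6399), and the log2 fold changes were -0.24 for ENSSSCG00000038068 and 4.01 for ENSSSCG00000040986 in place of -0.11 and 4.22. The log2 fold change of ENSSSCG00000038068 between tissues turned from -0.11 to 0.16 with DESeq2 and to 0.0857 without replicate 134 (without single pigs -0.27 to 0.0857). That of ENSSSCG00000040986 was 3.95 to 4.52 without single pigs, and its ileum diet value ranged from 0.63 to 4.54. Depth limits ENSSSCG00000022295 most, with at most 26 counts in a library. Its OO + PFA mean, 0.434 CPM, was 0.467 without OP-77. This setting and the folds over the floor without single livers were added after seeing the data.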

Other observations

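CMBL, the first annotated gene after ENSSSCG00000038557 in likeness to ENSSSCG00000038068, lies on chromosome 16 of Sscrofa11.1, from 72170813 to 72204695. ATPSCKMT, among the 3 most opposite genes, lies on the same chromosome from 72223492 to 72242073 under its RefSeq name FAM173B, with 18.8 kb between the 2 genes. CCT5, a chaperonin subunit gene between them (72211452 to 72223202), had r = -0.10 to ENSSSCG00000038068. Within the 24 livers alone r was 0.58 for CMBL and -0.63 for ATPSCKMT, and within the 10 ileum libraries 0.57 and -0.14. These are correlations across libraries without a test, and the pair was singled out after its positions were seen.

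Among the 11 genes in the same state in ileum and liver of all 10 pigs, 2 ran opposite to the Y-linked genes. ENSSSCG00000036841 and ENSSSCG00000033718, both without a symbol here, were on in C-80, C-92, C-100, P-95 and P-107, with 222 to 1208 counts in the ileum and 147 to 1514 in the liver, and had at most 1 count in the other 5 pigs. The 9 genes that were on in those 5 pigs had 336 to 6324 counts in the ileum and 67 to 4342 in the liver, and at most 3 where they were off.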
